A study of Mus musculus with 14 samples.

Results

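*Lin28b*, *Hmga2*, *Igf2bp1*, *Igf2bp2* and *Igf2bp3* belong to the fetal gene programme held down by the let-7 microRNAs, and their transcripts were followed from aortic endothelium to haematopoietic clusters. The 5 genes were taken by symbol from 19424 genes in the single-cell tables of mouse embryos at E10 and E11. In the study, cells passing through the endothelial-to-haematopoietic transition (EHT) in the aorta were sorted singly, and whole intra-aortic haematopoietic clusters (wIAHCs) were picked one by one. CEL-Seq, which counts the 3′ end of each molecule with a unique molecular identifier, was run on 12 single-cell samples and 2 wIAHC samples. E10 embryos had 28 to 32 somite pairs and E11 embryos over 40. For single cells of the clusters (IAHC cells), the study states that dissections of the aorta-gonad-mesonephros region were pooled.

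Non-haemogenic endothelium (non-HE, Cdh5+ Gfi1- Gfi1b- c-kit-), haemogenic endothelium (HE, Cdh5+ Gfi1+ Gfi1b- c-kit-) and EHT cells (Cdh5+ Gfi1+ Gfi1b- c-kit+) came from ICR embryos sired by Gfi+/tomato/Gfi1b+/GFP males, at both stages. IAHC cells (c-kit+CD31+ at both stages, with a second E11 sample sorted on c-kit alone), type I and type II pre-HSCs (E11, c-kit+Cdh5+, separated by CD45), yolk sac cells (YS, c-kit+) and wIAHCs came from wild-type C57BL/6 embryos. Strain and the reporter cross therefore changed together with population between EHT and IAHC cells. The effects of strain, reporter genotype and population cannot be told apart. The E10 non-HE columns carry names that read early E11, and they were kept in the E10 group that holds them in the deposit. Names of other columns also give finer ages within a stage. These differ between populations and, in E10 EHT and E11 non-HE cells, between sorted sets. A sorted set here means columns whose names begin alike, and a collection set means the same for wIAHCs. The labels do not say whether such sets are plates, sorts or collections. The study describes a selection of IAHC cells on *Gpr56* in the data, and its number of E10 cells so selected, 73, is the number deposited. Of the deposited cells, 54 of 73 E10 IAHC, 140 of 201 E11 c-kit+CD31+ and 47 of 89 E11 c-kit+ IAHC cells passed the rule as rebuilt here on down-sampled counts, and all deposited cells were kept. No cell name was shared between stages and no cell was held more than once.

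LIN28 proteins bind let-7 precursors and block their maturation, while mature let-7 pairs through its seed with sites in 3′ untranslated regions (UTRs) and lowers the output of those messengers. *Hmga2*, which encodes an architectural chromatin protein of the high mobility group, and the *Igf2bp* genes, which encode proteins that bind and stabilise messengers such as *Igf2*, are among the classical let-7 targets. In blood, the LIN28B, let-7 and HMGA2 axis is known for setting fetal against adult behaviour of haematopoietic stem cells.

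The sequence that ties the 5 genes together is the let-7 seed, so 2 mature miRNAs are shown with bases 2 to 8 in capitals, followed by 1 UTR match of each gene with the matching bases in capitals. All 8 mature let-7 miRNAs of the RefSeq table (GRCm38.p6) held the same seed. The UTR matches were read 5′ to 3′ from mm10, on the minus strand for every gene, and each shown match covers 8 bases.
mmu-let-7a-5p: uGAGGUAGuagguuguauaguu
mmu-let-7g-5p: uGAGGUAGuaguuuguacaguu
Lin28b (chr10:45381022-45381044): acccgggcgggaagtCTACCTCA
Hmga2 (chr10:120364224-120364246): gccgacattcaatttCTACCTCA
Igf2bp1 (chr11:95961778-95961800): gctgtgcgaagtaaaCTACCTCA
Igf2bp2 (chr16:22059473-22059495): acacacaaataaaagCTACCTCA
Igf2bp3 (chr6:49086787-49086809): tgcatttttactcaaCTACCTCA

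The 7-base match CTACCTC was searched on the sense strand of the longest annotated 3′ UTR, and the 8-base match CTACCTCA is a part of these matches. *Lin28b*, the let-7 antagonist, held 4 matches in 4445 bases, of which 1 had 8 bases. *Hmga2* held 4 matches in 3014 bases, of which 1 had 8 bases. *Igf2bp1*, the family member with the longest UTR, held 4 matches in 6337 bases, of which 3 had 8 bases. *Igf2bp2* and *Igf2bp3* each held 1 match, of 8 bases. Among 21021 genes searched, 9.02% held a 7-base match, 3.06% an 8-base match, and 0.0571% held 4 or more matches. Among genes with UTRs of like length, 4 or more matches were held by 0.295% for *Lin28b*, 0.123% for *Hmga2* and 0.331% for *Igf2bp1*. For *Igf2bp2* and *Igf2bp3*, 12.1% and 13.3% of genes of like length held at least 1. The 5 genes are textbook targets known from such sites, so these shares describe the choice of genes. Among the other 22 genes in a list of textbook let-7 targets, 14 held a match, and *Mycn* and *Ccnd2*, which are followed below, held 0. Other kinds of let-7 site were not searched, so 0 means only that CTACCTC was absent from the UTR searched. A match is a description of the sequence, and let-7 itself was not measured here, since the tables hold messengers.

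**Figure D1:**
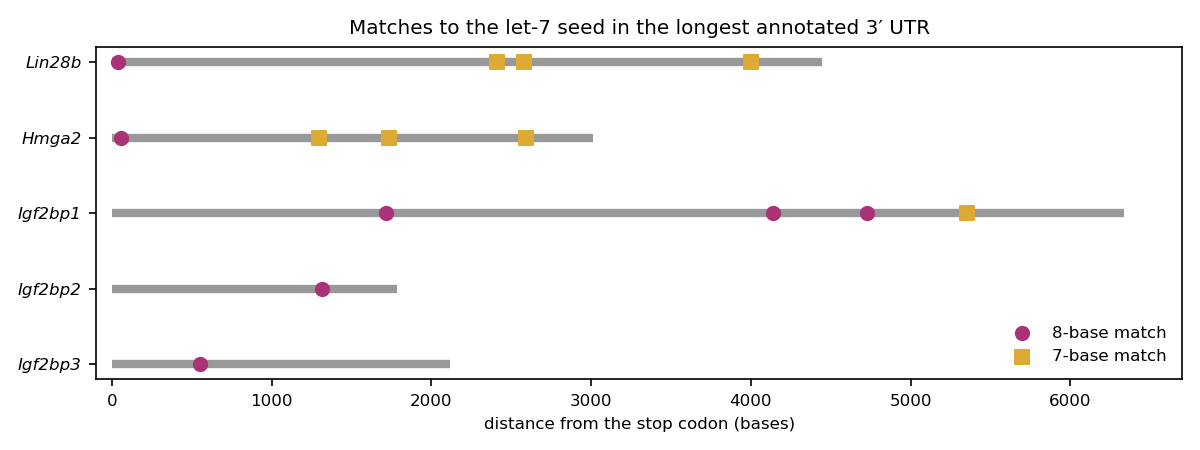
Matches to the let-7 seed along the longest annotated 3′ UTR of each gene, by distance from the stop codon. *Lin28b*, *Hmga2* and *Igf2bp1* held several and *Igf2bp2* and *Igf2bp3* held a single one.

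Levels of the single cells are given as transcripts per 10000, summed over the cells of a population, with exact Poisson 95% intervals in parentheses that cover counting error only. Each molecule counts once at its 3′ end, so that gene length does not enter. Each population and stage had 1 sample whose cells share their source, so the populations were compared without a test. The summed endothelial and haematopoietic markers followed the labels, while some populations also held markers of other cell types. Summed over 10 endothelial markers, the level at E10 was 131 in non-HE, 98.1 in HE, 28.8 in EHT, 16.7 in IAHC and 1.4 in YS cells. Summed over 12 haematopoietic markers, it was 1.4, 8.57, 33.5, 42.8 and 37.3. At E11, endothelial markers were at 92.1 in non-HE, 116 in HE and 2.61 in YS cells, with the E10 order of non-HE and HE turned, while the haematopoietic sum was 0.933 in non-HE and reached 36.2 in type II pre-HSCs. Summed over 9 erythroid markers, the level was 5.07 in IAHC and 7.35 in YS cells at E10. At E11 it was 0.498 in c-kit+CD31+ IAHC and 11 in YS cells. The part of erythroid cells in the differences between IAHC and YS cells was not tested. *Gfi1*, the gene behind the sorting reporter, was at 0.0775 in E10 non-HE and 1.46 in E10 HE cells. The E11 EHT cells also held macrophage transcripts, with 7 of 10 markers seen, a sum of 7.87, *Ctss* and *Lyz2* the most abundant at 3.3 each, and *C1qa*, *Cx3cr1* and *Mrc1* at 0. Without the 3 cells that held 4 or more of these markers, *Hmga2* in E11 EHT cells was 10.8 against 10.48 with them.

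*Lin28b*, whose protein blocks let-7 maturation, was the rarest of the 5 genes. At E10 its level was 0 in non-HE (at most 0.286), 0.102 (0.021 to 0.298) in HE, 0.384 (0.241 to 0.581) in EHT, 0.457 (0.219 to 0.84) in IAHC and 0.993 (0.716 to 1.34) in YS cells. At E11 it was 0.0667 in non-HE, 0 in HE (at most 0.16), 0.0435 in EHT, 0.226 in type I and 0.436 in type II pre-HSCs, 0.289 in c-kit+CD31+ IAHC, 0.27 in c-kit+ IAHC and 0.565 (0.301 to 0.967) in YS cells. Non-HE and HE cells and E11 EHT cells thus had the lowest levels, at 0 to 3 transcripts each, and the yolk sac the highest at each stage. Intervals of the low populations covered levels of others, and the ratio of type I pre-HSCs to E11 EHT cells was 5.19 (0.667 to 234). At E10 these levels rested on 0, 3, 22, 10 and 42 transcripts. Transcripts were found in 3.06% of E10 HE, in 20 of 191 EHT cells, in 11% of IAHC and 24.8% (17.9 to 32.8) of YS cells. *Lin28b* was 3.76-fold (1.1 to 20) higher in EHT than in HE cells at E10, from 3 and 22 transcripts. It was 2.17-fold (1.1 to 4.9) higher in YS than in IAHC cells at E10. At E11 the same ratio was 1.96 (0.935 to 3.89), and its interval reaches past equality. In EHT cells, 1 transcript at E11 faced 22 at E10, a level 8.83-fold lower with a lower bound of 1.43. In the order of the 13 levels every neighbour overlapped the next in its interval, while the ends did not overlap. Among the 5 sorted sets of c-kit+ IAHC cells, *Lin28b* ranged from 0.125 to 1.43, and the highest came from a set of 7 cells. *Lin28a*, the second LIN28 gene, was at most 0.0709, in E10 YS cells.

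*Hmga2*, the chromatin protein gene, was the most abundant of the 5 in every population except E10 non-HE, where *Igf2bp1* matched it. At E10 its level was 4.11 (3.08 to 5.37) in non-HE, 10.2 (9.05 to 11.4) in HE, 12 (11.1 to 12.9) in EHT, 13.3 (11.8 to 15) in IAHC and 5.74 (5.05 to 6.51) in YS cells. At E11 it was 3.47 (2.59 to 4.55) in non-HE, 7.09 (6.04 to 8.26) in HE, 10.48 (9.2 to 11.9) in EHT, 10.48 (9.37 to 11.7) in pre-HSCs of type I and 10.3 (9.13 to 11.6) in those of type II, 12.7 (12 to 13.4) in c-kit+CD31+ IAHC, 9.06 (8.19 to 9.99) in c-kit+ IAHC and 5.26 (4.37 to 6.29) in YS cells. The low ends were thus 2 unlike cell types, endothelium without haemogenic reporter and yolk sac progenitors, and c-kit+CD31+ IAHC cells stood at the top. The share of cells with a transcript was 60.5% in E10 non-HE, 95.9% in E10 IAHC and 64.5% in E10 YS cells. From non-HE to HE, the level was 2.48-fold (1.84 to 3.38) higher at E10 and 2.04-fold (1.5 to 2.9) higher at E11. From IAHC to YS cells it was 2.32-fold (1.95 to 2.76) lower at E10 and 2.41-fold (2 to 2.93) lower at E11. Sorted sets ran from 9.67 to 11 in E10 HE and from 11.4 to 13.6 in E11 c-kit+CD31+ IAHC cells. In E10 EHT cells they ran from 9.67 (7.99 to 11.6) to 13.1 (11.8 to 14.6), with intervals that did not overlap, and in type I pre-HSCs from 10.1 to 13. The c-kit+ IAHC sets spread furthest, from 6.29 to 11.1. Neighbours in the order of levels overlapped in their intervals here too. HE cells held less *Hmga2* at E11 than at E10, by 1.44-fold (1.18 to 1.75), whereas the E11 to E10 ratio in c-kit+CD31+ IAHC cells was 0.951 (0.837 to 1.08).

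**Figure D2:**
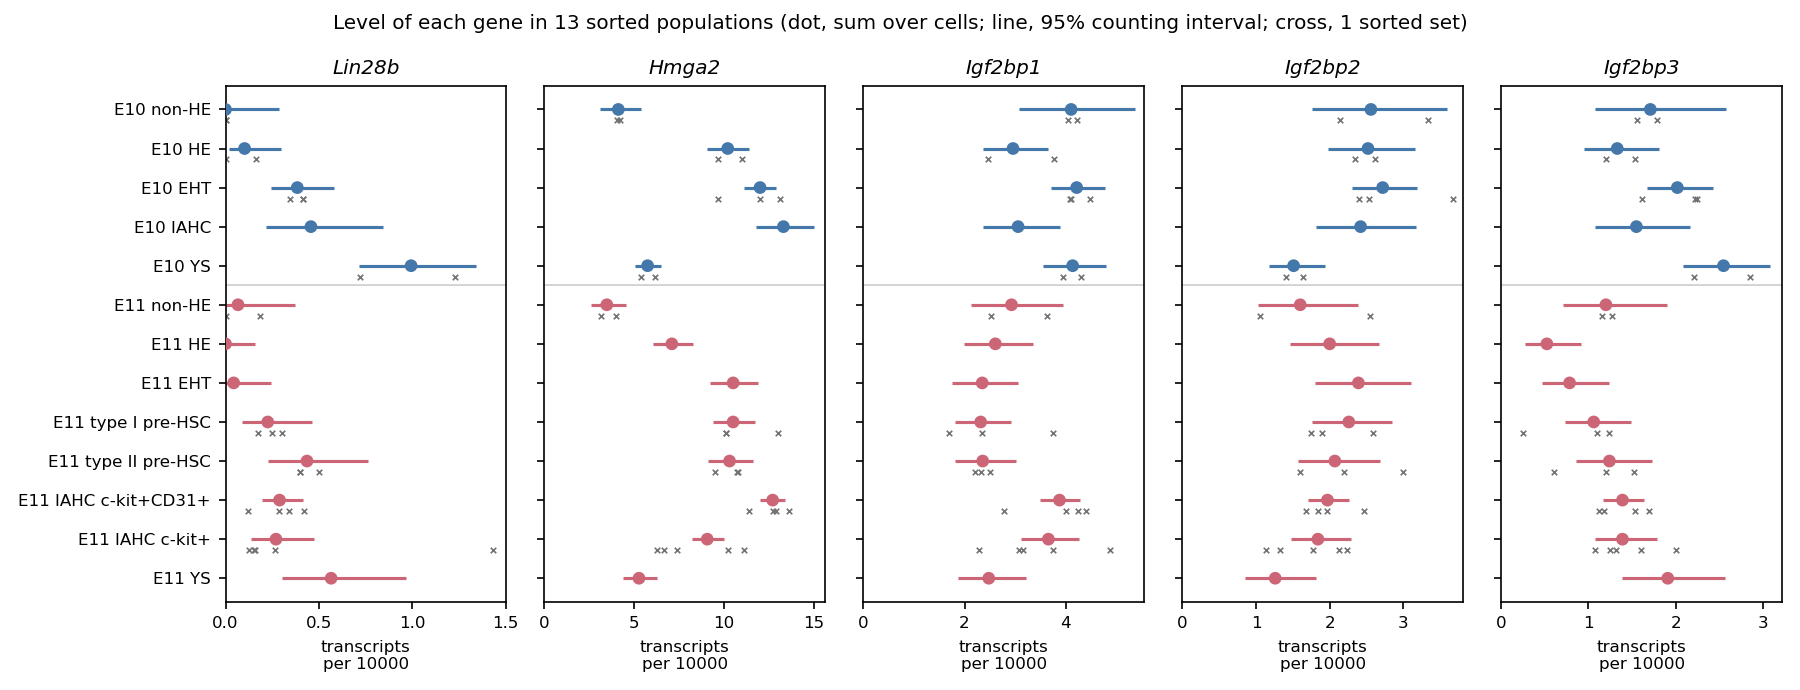
Levels of the 5 genes in 13 sorted populations, with counting intervals and the value of each sorted set, read from column names. *Hmga2* was lowest in non-HE and YS cells, and *Lin28b* and *Igf2bp3* were highest in YS cells at each stage.

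The *Igf2bp* genes encode 3 related RNA-binding proteins, and together they amounted to between 5.13 (E11 HE) and 8.97 (E10 EHT) transcripts per 10000. *Igf2bp1* was the flattest member, from 2.32 (1.82 to 2.92) in E11 type I pre-HSCs to 4.22 (3.71 to 4.79) in E10 EHT cells. Its sorted sets ran from 1.7 to 3.75 in type I pre-HSCs. In E11 c-kit+CD31+ IAHC cells they ran from 2.78 (2.16 to 3.52) to 4.41 (3.68 to 5.23), with intervals that did not overlap. Sets within a population thus spread about as widely as the populations. The *Igf2bp1* level was 4.11, 2.96, 4.22, 3.06 and 4.14 at E10 from non-HE to YS cells. It was lower at E11 in EHT cells by 1.8-fold (1.33 to 2.46) and in YS cells by 1.67-fold (1.23 to 2.29). Over all genes the median log2 ratio of E11 to E10, with 0.5 added, was itself -0.16 in HE, -0.23 in EHT and -0.31 in YS cells, and depth differed between the stages. *Igf2bp2* was lowest in YS cells at both stages, at 1.51 (1.17 to 1.93) and 1.26 (0.844 to 1.81), and highest in E10 EHT cells at 2.72 (2.31 to 3.18). The sorted sets of E10 EHT cells were at 3.67, 2.53 and 2.4, and E10 non-HE cells were at 2.56. The top place of E10 EHT cells thus rested on the first set. YS cells held 1.6-fold (1.09 to 2.34) less *Igf2bp2* than IAHC cells at E10 and 1.56-fold (1.05 to 2.39) less at E11. *Igf2bp3* was highest in YS cells at each stage, at 2.55 (2.09 to 3.08) and 1.9 (1.4 to 2.6), and E10 EHT cells, at 2.02 (1.67 to 2.43), lay between these. Its lowest level was 0.522 (0.27 to 0.911), in E11 HE cells. Against E10, *Igf2bp3* at E11 was 2.54-fold (1.3 to 5.33) lower in HE and 2.59-fold (1.6 to 4.5) lower in EHT cells. As with the other genes, neighbours in each order overlapped and the ends did not.

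The populations also differed in which family member they held. *Igf2bp2* made up 34.4% (27 to 42.5) of the family in E10 IAHC cells and 18.4% (14.5 to 22.9) in E10 YS cells. At E11 its share was 27.2% (24 to 30.6) in c-kit+CD31+ IAHC and 22.3% (15.5 to 30.4) in YS cells, and there the intervals overlapped. *Igf2bp3* made up 31.1% in E10 YS and 33.8% in E11 YS cells, against 10.2% in E11 HE cells. *Igf2bp1* held the largest share in 12 of 13 populations, and in E11 EHT cells *Igf2bp2* held 43.3% against 42.5%. *Igf2*, the growth factor messenger after which the family is named, ran along a far steeper gradient. Its level was 168 in non-HE, 94.3 in HE, 64 in EHT, 38.7 in IAHC and 3.59 in YS cells at E10. The family sum was 8.37, 6.8, 8.97, 7.03 and 8.2 in the same order, so that the summed transcripts of the family did not follow this messenger.

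**Figure D3:**
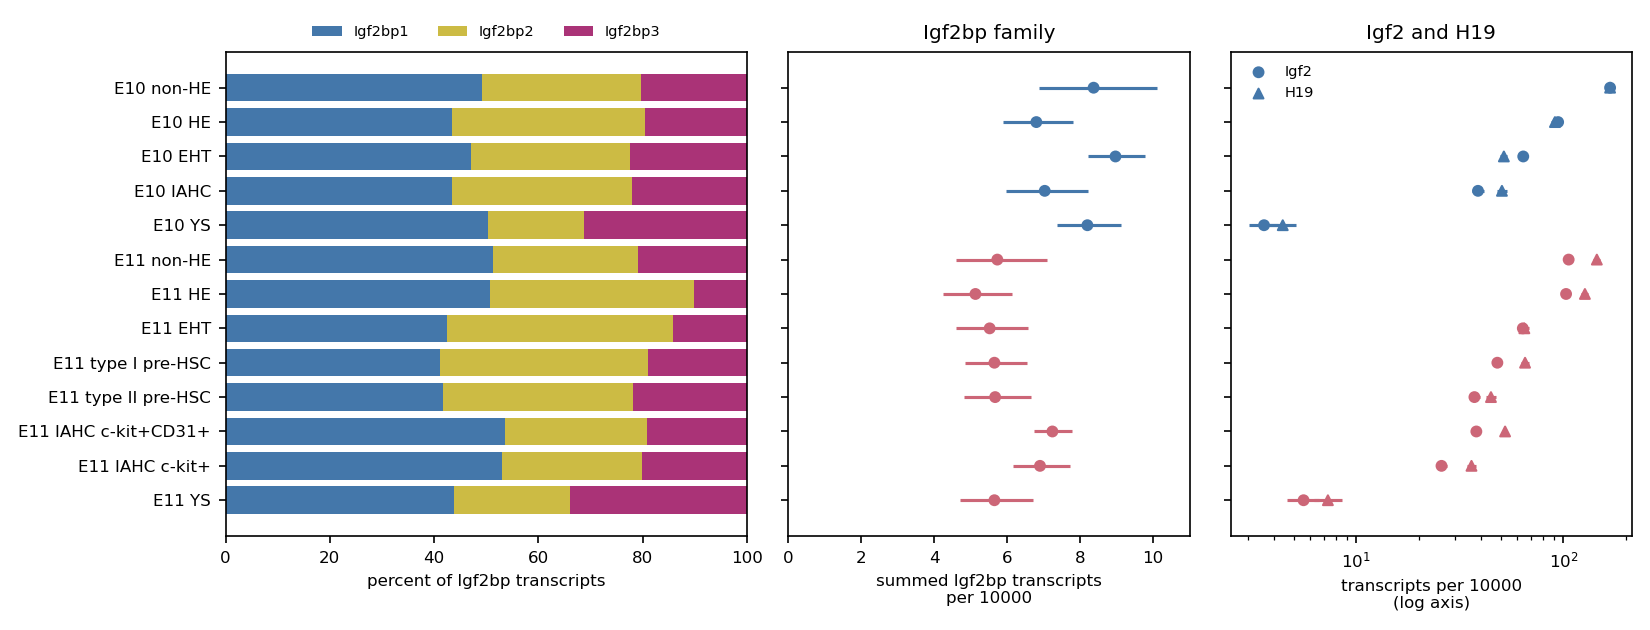
Composition of the *Igf2bp* family, its summed level, and the levels of *Igf2* and *H19*. YS cells held the largest share of *Igf2bp3* and the least *Igf2* and *H19*.

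To place the 5 genes among all genes, a gene was counted as past 2-fold when its level, with 0.5 per 10000 added, differed at least 2-fold among genes that reached 0.5 in either population. From E10 non-HE to HE, 1 of the 4 members counted was past 2-fold (*Hmga2*, higher), against 4.26% of all genes. From E10 IAHC to YS cells it was 1 of 5 (*Hmga2*, lower), against 6.03%, and from E11 c-kit+CD31+ IAHC to YS cells again 1 of 5 (*Hmga2*, lower), against 4.12%. *Lin28b* reached 0.5 only in YS cells, so it was counted only in comparisons with them. At E10, 0 of 4 members were past 2-fold from HE to EHT (5.91% of all genes) and 0 of 4 from EHT to IAHC cells (4.19%). At E11, 0 of 4 were past it from non-HE to HE (2.92%), from HE to EHT (8.03%), from EHT to c-kit+CD31+ IAHC (7.36%), from EHT to type I pre-HSCs (5.96%) and from type I to type II pre-HSCs (0.674%). Between stages, 0 members were past it in non-HE (5.04%), HE (5.8%), EHT (3.57%), IAHC (3.28%) and YS cells (6.11%). *Hmga2* from non-HE to HE at E11 came close, at a log2 ratio of 0.94 with 0.5 added. *Igf2bp3* between stages in EHT cells was at -0.98, and the median over all genes there was -0.23. Counts of 1 in 4 or 5 genes are above these shares, but each rests on *Hmga2* alone and does not set the group apart.

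Over the 13 population profiles the 5 genes did not move as a block. The highest Pearson r of log2 levels was 0.73 between *Lin28b* and *Igf2bp3*, followed by 0.64 between *Igf2bp1* and *Igf2bp3*. By rank correlation (rho) this order was turned, at 0.66 for the first pair and 0.75 for the second. *Lin28b* and *Hmga2* had an r of 0.17, and *Lin28b* and *Igf2bp2* one of -0.44. The profiles share stages, strains and depth, so these values are descriptions without a p. In E10 IAHC cells, *Hmga2* was at 17.1 in the 8 cells with a *Lin28b* transcript and at 12.9 in the others. In E11 c-kit+CD31+ IAHC cells the order was turned, at 11.9 in 26 cells with and 12.8 in those without. Among 1981 genes, those nearest to *Hmga2* over the 13 profiles were *Neurl3* (r = 0.96), *Gfi1* (0.92), *Rnf149* (0.91), *Limd2* (0.9) and *Zfp36l2* (0.86). *Gfi1* was itself a sorting criterion for HE and EHT cells, through a reporter allele that the wild-type IAHC, pre-HSC and YS cells did not carry. Nearest to *Igf2bp1* were *Nxf1* (0.74), *Rnf10* (0.73), *Ube2k* (0.71), *Pop5* (0.68) and *Srrm2* (0.66), all weaker than the neighbours of the other members. Nearest to *Igf2bp2* were *Sptssa* (0.91), *Tab2* (0.9), *Dnmt3a* (0.89) and *Acta2* (0.88). Nearest to *Igf2bp3* was *Tpx2* (0.91), which encodes a spindle assembly factor, then *Psmd12* (0.89), *Ube2m* (0.89), *Rars* (0.88) and *Mrpl19* (0.88). *Lin28b* stayed below 1 per 10000 in every profile, so no neighbour was sought for it.

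Other textbook let-7 targets had patterns of their own. Of 26 in the tables, 19 were counted from E10 non-HE to HE, and *Hmga2* and *Mycn* were past 2-fold, both higher (4.26% of all genes). *Mycn*, a MYC family transcription factor gene, was highest in EHT cells, at 5.06 at E10 and 4.78 at E11, and at 0.502 in E10 IAHC cells. The list median of log2 ratios was 0.16 at that step, against 0.05 over all genes. From IAHC to YS cells at E10, 18 were counted, and *Hmga2* (lower) and *Rrm2* (higher) were past 2-fold (6.03% of all genes). *Rrm2*, a subunit of ribonucleotide reductase, was at 1.64 and 3.92. At E11, 17 were counted, and *Hmga2* and the cyclin gene *Ccnd2* were past it, both lower in YS cells (4.12% of all genes). *Ccnd2* was at 1.65 against 4.67. In the let-7 control and processing list, 6 of 14 genes were counted at that first step and 0 were past 2-fold. *Dicer1*, which makes mature miRNAs, lay between 0.478 and 1.33.

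**Figure D4:**
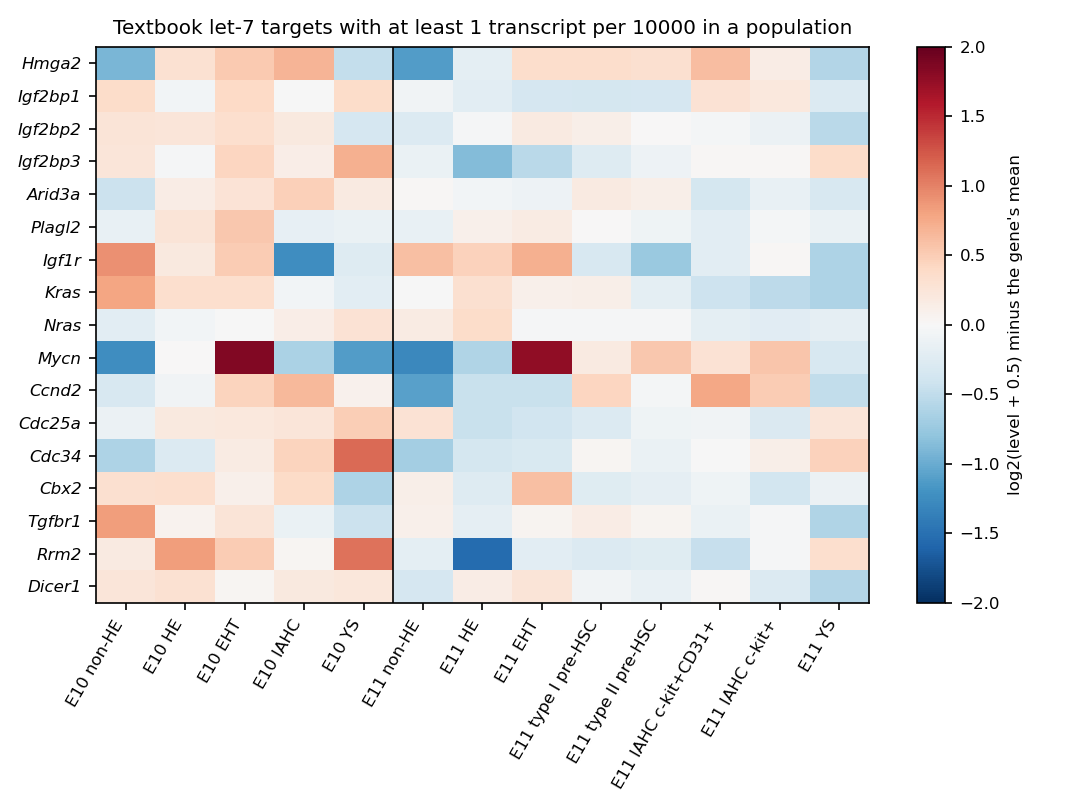
Textbook let-7 targets with at least 1 transcript per 10000 in a population, each against its own mean. *Hmga2* was low at both ends of the order, *Mycn* peaked in EHT cells, and no common gradient ran through the list.

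Genes that work with the members were followed as fixed lists. Of 14 genes of the IGF axis, 5 were counted from IAHC to YS cells at E10, and *Igf2*, *H19* and *Igfbp4* were past 2-fold, all lower (6.03% of all genes). *H19*, the noncoding neighbour of *Igf2*, was at 50.5 in E10 IAHC and 4.42 in E10 YS cells. The same 3 were past it at E11 (4.12%), where *Igf2* was at 38 in c-kit+CD31+ IAHC and 5.57 in YS cells. *Igf2r*, the receptor that clears IGF2, was at 4.9 in E10 HE and 1.64 in E10 EHT cells. Of 14 granule partners and related mRNA-binding proteins, 1 was past 2-fold from EHT to IAHC cells at E10 (*Pabpc4*, lower, 4.19% of all genes) and 2 at E11 (*Ybx1* and *Dhx9*, lower, 7.36%). Of 13 m6A writers, erasers and readers, 8 were counted and 1 was past it from E11 EHT cells to type I pre-HSCs, the demethylase gene *Alkbh5* (0.913 and 0.194, 5.96% of all genes). Among 9 high mobility group genes, of which 7 were counted, *Hmgb2* and *Hmgn2* were past it from HE to EHT cells at E11 (8.03% of all genes), *Hmgb2* at 1.7 and 4.22, while *Hmga2* went from 7.09 to 10.48. *Hmgb2* was past it in the lower direction from EHT to c-kit+CD31+ IAHC cells at both stages.

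Replicated libraries were available for wIAHCs only. Of 109 libraries, 57 held at least 5000 transcripts and were used, 7 E10 dorsal, 21 E10 ventral, 12 E11 dorsal and 17 E11 ventral. Embryos are not named, so the p-values measure spread between libraries, which may share an embryo. No collection set held both stages, so stage and collection cannot be told apart. A wIAHC is a bulk of cells, in which fewer cells of a type and less RNA per cell cannot be told apart. Erythroid markers stood apart between stages, with summed medians of 3.01 (dorsal) and 1.5 (ventral) at E10 and 19 and 30.3 at E11, and 3 E11 libraries held over 10% haemoglobin transcripts. The endothelial sum had medians of 5.87 and 7.6 at E10 and 17.4 and 9.49 at E11, and the mesenchyme sum 0.174 and 0.637 at E10 and 3.68 and 2.57 at E11. The part of these cell types in the results was not tested.

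*Hmga2* was found in all 57 libraries. In E10 dorsal wIAHCs it ranged from 8.11 to 18.4 per 10000 with a median of 10.2, and in E10 ventral ones from 3.12 to 24.2 with a median of 12.1. In E11 dorsal wIAHCs it ranged from 3.63 to 44.8 (median 14.4), and in E11 ventral ones from 7.26 to 25.5 (median 13.3). The groups overlapped throughout, and the highest libraries were 2 of E11 dorsal origin. The E11 dorsal libraries came in sets, with a median of 17.3 in the first and 8.12 in the second. The medians lay near the 13.3 and 12.7 of single E10 and E11 c-kit+CD31+ IAHC cells.

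Only 260 genes passed the edgeR filter on low counts, and *Hmga2* was the only member among them. Over both sides, *Hmga2* was higher at E11 (edgeR, log2 fold change 0.53, standard error 0.20, Benjamini-Hochberg adjusted p = 0.0346), with 22 of 29 E11 libraries above the E10 median. This made 1 of 1 member called in a contrast that called 32.3% of all genes tested (47 higher and 37 lower). On the ventral side *Hmga2* was not called (0.16, standard error 0.21, edgeR adjusted p = 0.577, 13 of 17 E11 libraries above the E10 median), against 31.2% of genes. On the dorsal side it was not called either (0.90, standard error 0.33, edgeR adjusted p = 0.0726, 9 of 12 libraries above), against 9.23% of genes. With DESeq2 the ventral value was -0.11 and the dorsal one 0.06, and with no filter on low counts they were -0.01 and 0.27. The call over both sides depended on the processing as well. With DESeq2 the log2 fold change was -0.02 (adjusted p = 0.959), with no filter on low counts in edgeR 0.13 (adjusted p = 0.877), and without TMM scaling 0.39 (adjusted p = 0.13). With libraries of at least 10000 transcripts it was 0.42 (edgeR adjusted p = 0.142), and without the first E11 set 0.40 (adjusted p = 0.215). Leaving out 1 library at a time kept the call in 46 of 57 refits and ended it in 11, with adjusted p from 0.0192 to 0.0852. On simulated data with many genes changed, the fit made more false calls than its cutoff allows, and this contrast called many genes. A difference between stages in wIAHCs was therefore not established for *Hmga2*.

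Between sides, *Hmga2* had a log2 fold change of 0.44 (ventral against dorsal, edgeR adjusted p = 0.664) at E10 and of -0.30 (edgeR adjusted p = 0.743) at E11. The E11 value turned to 0.34 with DESeq2 and to 0.16 with no filter. At E10, edgeR called 0 genes (0%, with 20 at unadjusted p under 0.05) and DESeq2 0. At E11, edgeR called 0 genes (0%, with 23 at unadjusted p under 0.05) and DESeq2 23. For the interaction of stage and side, *Hmga2* was at -0.74 (edgeR adjusted p = 0.49), edgeR called 0 genes (0%, with 26 at unadjusted p under 0.05) and DESeq2 0. The *Hmga2* interaction was smaller with DESeq2, at -0.17, and with no filter, at -0.27.

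The other 4 members were too sparse for the filter and are given from the edgeR fit without it, in which none was called in any contrast. *Lin28b* was detected in 3 of 7 E10 dorsal, 13 of 21 E10 ventral, 3 of 12 E11 dorsal and 8 of 17 E11 ventral libraries, and reached 2.47 in an E10 ventral one. Its log2 fold change between stages over both sides was -0.88 (standard error 0.47, edgeR adjusted p = 0.316), with 9 of 29 E11 libraries above the E10 median. *Igf2bp1* had medians of 3.57, 3.5, 3.57 and 3.27 per 10000 in E10 dorsal, E10 ventral, E11 dorsal and E11 ventral libraries. *Igf2bp2* had medians of 0.743, 2.25, 2.34 and 2.63 in the same order. E10 dorsal wIAHCs thus held the least, but the ventral to dorsal log2 fold change of 1.2 (standard error 0.48, edgeR adjusted p = 0.67) did not pass the test. Between stages it was at 0.99 on the dorsal side (edgeR adjusted p = 0.513, all 12 E11 libraries above the E10 median) and at 0.58 over both sides (edgeR adjusted p = 0.322). That E10 dorsal median was 0.743, and E11 dorsal libraries with only 1 *Igf2bp2* transcript lay above it. Median depth was 14063 transcripts in E10 dorsal and 8244 in E11 dorsal libraries. *Igf2bp3* had medians of 2.2, 1.8, 1.6 and 1.8, and a stage difference over both sides of -0.55 (edgeR adjusted p = 0.367).

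**Figure D5:**
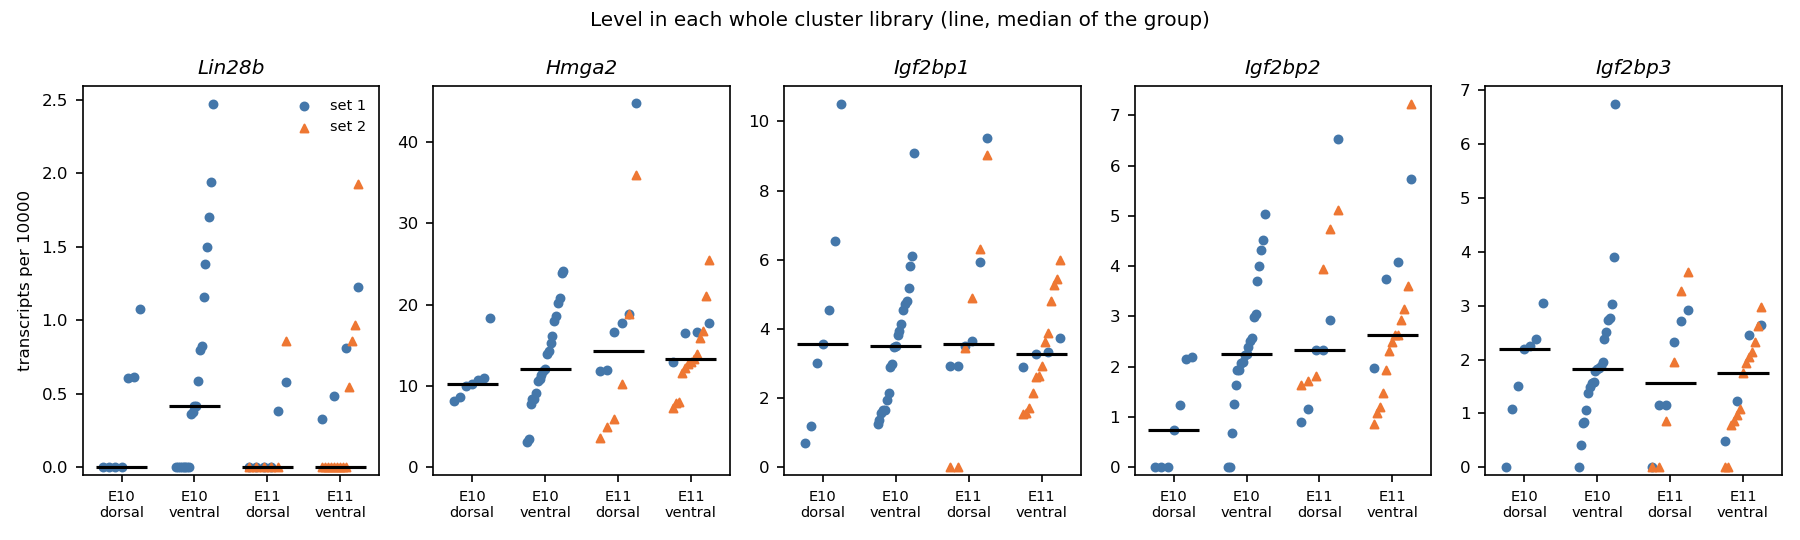
Levels of the 5 genes in each wIAHC library, by stage, side and collection set, read from column names. The groups overlapped for every gene, and the sets of E11 dorsal *Hmga2* had unlike medians and overlapped.

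Of the messengers around the members, *Igf2* and *H19* rose in wIAHCs from E10 to E11 in the edgeR fit. *Igf2* had medians of 20.7 (dorsal) and 18.9 (ventral) at E10 and 48.2 and 29.8 at E11, and was called over both sides (edgeR, log2 fold change 1.08, adjusted p = 2.34e-06, 26 of 29 E11 libraries above the E10 median). With DESeq2 that call was lost (0.55, adjusted p = 0.0539), and every other alternative kept it. *H19* had medians of 23.5 and 13.7 at E10 and 53.6 and 42.5 at E11 (edgeR, 1.5 over both sides, adjusted p = 2.01e-06, 28 of 29 libraries above). In single c-kit+CD31+ IAHC cells, *Igf2* was at 38.7 at E10 and 38 at E11. Of 3 genes of the IGF axis that passed the filter, *Igf2* and *H19* were called over both sides, where 32.3% of all genes tested were, and *Igfbp4* was not. Among textbook let-7 targets, *Ccnd2* was tested beside *Hmga2* and was called over both sides (edgeR, 0.64, adjusted p = 0.0475, 18 of 29 libraries above) but on neither side alone (ventral 0.30, adjusted p = 0.412, 8 of 17 libraries above, and dorsal 0.99, adjusted p = 0.141, 11 of 12 above), a call lost with DESeq2 (0.09, adjusted p = 0.857), with no filter, without TMM, with libraries of at least 10000 transcripts, with a term for set and without the second E11 set. Of 4 granule partners tested, 0 were called in any stage contrast (31.2% of all genes ventral, 9.23% dorsal and 32.3% over both sides). Of 5 high mobility group genes tested, *Hmgb2* was called lower at E11 on the ventral side, where 31.2% of all genes were called. Its ventral log2 fold change was -0.63 (edgeR adjusted p = 0.0416, 14 of 17 libraries below the E10 median). It was not called on the dorsal side (0.28, edgeR adjusted p = 0.682) or over both sides (-0.18, edgeR adjusted p = 0.616). The difference between sides was not called either (interaction of stage and side, -0.91, edgeR adjusted p = 0.485). The ventral call was lost with DESeq2 (-0.89, adjusted p = 0.084), with no filter, with at least 10000 transcripts and without haemoglobin-rich libraries. It was also lost with a term for set and without the second E11 set.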

How the data were processed

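For single cells, the authors deposited estimated counts of transcripts, made from unique molecular identifiers, down-sampled to 3000 (E10, 546 cells) or 5000 (E11, 575 cells) per cell and raised by 0.1, which was taken off. The wIAHC table holds estimated counts with a correction for identifier collisions made by the authors, and without scaling. The submitters' processing notes name BWA 0.6.2-r126 and mm10. The 5 genes and all lists were chosen with earlier results of these data known. Named genes are the 5 members, for each member up to 5 of the genes with the highest r over 13 profiles, and in each list the genes past a rule at the steps given, which are a choice of steps, or otherwise 2 to 4 of the most abundant. At these depths 1 transcript equals between 0.00995 and 0.0775 per 10000 in a population. The *Gpr56* rule was rebuilt as over 1 *Gpr56* transcript and at most 2 of each of 11 genes of mesenchyme, sub-aortic patches and erythro-myeloid progenitors chosen from the markers that the study shows, since it gives no full list. Shares of cells have Clopper-Pearson 95% intervals, and ratios of sums exact intervals.

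The wIAHC libraries used held 5099 to 115328 transcripts, and 90 spike-in entries were left out. Counts were rounded and fitted with edgeR 4.0.16 in R 4.3.3 (TMM, filterByExpr, quasi-likelihood test, 4 groups, Benjamini-Hochberg adjusted p under 0.05). DESeq2 1.42.0 was the second tool. Other alternatives were no filter, no TMM, minima of 2000 and 10000 transcripts, the collision correction undone, libraries over 10% haemoglobin left out, and a term for collection set. Each E11 set left out, each library left out, and totals over all genes were added after the data were seen. Let-7 matches were searched in GENCODE vM21 UTRs of mm10, and mature miRNAs came from RefSeq (GRCm38.p6). Python 3.11.15, pandas 2.3.3, numpy 2.4.6, scipy 1.17.1 and matplotlib 3.10.9 were used. The counting intervals and the edgeR fit were tested on simulated data. With no gene changed the fit called none. With many of the tested genes changed, the fit made more false calls than its cutoff allows, a limit for the stage contrasts that call many genes.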

Additional observations from a re-analysis of the deposited data

Results flagged for a closer look

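The highest of 7 E10 dorsal wIAHC libraries held *Hmga2* at 18.4 per 10000, with the next at 11. It was picked out because its gap to the next, divided by the range, was 0.72, past the 95% critical value of Dixon's test. Of 5 genes checked in this group, 1 had such a library, and some are met by chance when several genes are checked. The 52 wIAHC libraries below 5000 transcripts were picked out as data that the main fits do not use. Summed, they held *Lin28b* at 0.4, *Hmga2* at 12.4, *Igf2bp1* at 3.81, *Igf2bp2* at 1.8 and *Igf2bp3* at 1.2 per 10000. No stage or side difference was tested in them alone, and those with at least 2000 transcripts entered 1 alternative fit.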

How the results depend on the processing

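The wIAHC counts of genes called depended on the processing, and the cause was not tested except where fewer libraries or more genes entered. The genes tested differed as well, with 260 in the main fit, 13627 with no filter, and with DESeq2 4644 (ventral), 946 (dorsal) and 4380 (both sides), so the counts are not shares. Between stages on the ventral side, 81 genes were called (47 higher, 34 lower), against 161 with DESeq2 (72 and 89), 310 with no filter, 86 without TMM (30 and 56), 132 with libraries of at least 10000 transcripts and 44 without the second E11 set. On the dorsal side 24 were called (19 and 5), against 191 with DESeq2 (5 and 186), 107 with no filter (25 and 82), 40 without TMM (16 and 24), 3 with at least 10000 transcripts, 31 without the first E11 set (20 and 11) and 16 without the second (9 and 7). Over both sides 84 were called (47 and 37), against 625 with DESeq2 (57 and 568), 485 with no filter (159 and 326), 89 without TMM (26 and 63) and 72 without the second E11 set (33 and 39). Between sides at E10, 0 became 8 with no filter. Between sides at E11, 0 became 23 with DESeq2, 12 with no filter and 1 without the second E11 set. For the interaction, 0 became 21 with no filter.

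*Hmga2* over both sides lost its difference with DESeq2, at -0.02 against 0.53. Its ventral value turned from 0.16 to -0.11 with DESeq2 and -0.01 with no filter, its dorsal one went from 0.90 to 0.06 and 0.27, and its E11 side difference turned from -0.30 to 0.34 and 0.16. The call over both sides was kept with a minimum of 2000 transcripts (0.55) and without the second E11 set (0.63, adjusted p = 0.0409), and with the collision correction undone, without haemoglobin-rich libraries, with a set term, which acts within E11 only, and with totals over all genes. Its dorsal stage difference was called with a minimum of 2000 transcripts (0.94, adjusted p = 0.0297) and in 2 of 57 refits with 1 library left out. With a pseudocount of 0.2, 1 member, *Igf2bp3*, was past 2-fold between stages in HE (12.2% of all genes) and 1, the same gene, in EHT cells (9.16%), against 0 with 0.5. In the other 43 of 45 alternatives the counts past 2-fold did not change. Of 195 alternative levels of the members, 190 stayed within the counting interval. The others were *Lin28b* at 0 in E10 HE without set 2, at 0 in E11 non-HE without set 1 and with cells thinned to 3000 transcripts, *Igf2bp1* at 3.78 in E10 HE without set 2, and *Igf2bp2* at 2.55 in E11 non-HE without set 2.

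No paired analysis was possible because the labels name no embryo or litter for any library. Leaving out each library in groups of 2 to 5 did not apply, since the groups held 7 to 21. Depth limits *Lin28b* most, which rests on 0 to 42 transcripts a population, so 0 found does not mean 0 expressed. Counting intervals leave out the spread between embryos and sorts. Strain and reporter genotype change with population. Pooled dissections hide the embryo of IAHC cells, and the labels name none for the other cells. The study describes a selection of IAHC cells on *Gpr56*, with as many E10 cells as were deposited, yet many of the deposited cells did not pass the rule as rebuilt here. The 3′ tags do not tell transcript forms apart, and let-7, proteins and their activity were not measured.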
